A study of Mus musculus with 16 samples.

Results

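The Myc network is a set of transcription factors that dimerize through a helix-loop-helix leucine zipper. Myc, Mycl and Mycn bind the E-box CACGTG together with their partner Max and activate genes of growth and ribosome production. Mxd1, Mxd3, Mxd4, Mxi1, Mnt and Mga compete for Max and, bound to it, repress through Sin3 and histone deacetylases or, in the case of Mga, through a Polycomb complex. Myc and Mycl are known as drivers of small cell lung cancer, and MAX and MGA as genes inactivated in some of these tumours. The 10 genes named here were selected by symbol, and all 10 were found among the 17655 genes listed in each file. All 10 were expressed highly enough to be tested, with at least 365 reads in every library.

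The cells were preSC, mouse precancerous cells of small cell lung cancer, labelled as neuroendocrine lung cells positive for Chga. Both groups share the genotype Rb1 null, Trp53 null and Rbl2 heterozygous null. The control group, termed empty, carried an empty lentiviral vector, and the other, termed Wnt5a, carried a lentivirus with Wnt5a, a secreted Wnt ligand. Both had received doxycycline at 1 µg/mL for 48 hours, and no sample went without it. Whether the drug acted alike in both groups was not tested. The animal, the cell clone and the promoter of the lentivirus are not given in the sources used here.

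Each group had 8 deposited samples of 7526676 to 8859862 reads. Samples 1 to 4 of a group differed among themselves by about the sampling noise, as did samples 5 to 8 (index of dispersion 0.987 to 1.05, where sampling noise gives 1), so each set of 4 was averaged and counted as 1 library. Libraries A and B of a group differed beyond that noise (index 5.23 to 5.44), and n = 2 libraries per group throughout. Nothing in the labels says that A and B were separate cultures, so p-values measure only the spread between these libraries. The transduced gene checked the labels: Wnt5a was read at 144 and 99.8 in libraries A and B of empty cells but at 1049 and 1509 in those of Wnt5a cells (log2 difference 3.38; adjusted p = 0.0010, limma). Permuting library labels exactly, two-sided, cannot give a p below 0.333 with 2 libraries per group, and gave that value. Of the genes named in the genotype, Rb1 averaged 3223 (empty) and 3193 (Wnt5a), Trp53 at 67.4 and 90.9 and Rbl2 at 321 and 351. Reads from outside a deleted part count toward such values, so they check nothing about the deletions. Chga was at 4043 and 3403 (limma adjusted p = 0.428). The 10 neuroendocrine markers were all expressed. Their summed normalised read count was lower in both Wnt5a libraries (56620 and 53432) than in both empty libraries (60392 and 58390), and 1 of the 10, the secretogranin gene Scg2, passed the limma threshold (4389 and 3829 in empty, 2473 and 2463 in Wnt5a). Of the markers of other cell types, Dcn (fibroblasts) stood out at 597 and 340.2 in empty and 241 and 246 in Wnt5a libraries, and 2 weakly detected markers, Pdgfra (54 reads in empty, 17 in Wnt5a) and Col1a1 (22 and 4 reads), were likewise lower in Wnt5a. Col1a2 and Col3a1 were at or below 0.254 in every library. The fibroblast sum was 604 and 353 in empty and 244 and 248 in Wnt5a, with 0 of these markers called. The summed level was at most 15.3 for leukocyte, 4.41 for endothelial and 52.7 for lung epithelial markers. The part of these cells in the values below was not tested.

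Mycl was the most abundant of the Myc paralogs in preSC, followed by Myc and then Mycn. Levels of different genes were compared as the normalised read count per kilobase of annotated exon. On this scale Mycl was at 139 and 130 in empty libraries A and B, and at 148 and 135 in Wnt5a libraries A and B. The same libraries, in that order, gave 64.4, 62.2, 65.2 and 64.0 for Myc, and 35.7, 29.0, 36.5 and 26.0 for Mycn. The ranges of the 3 paralogs over the 4 libraries did not overlap. Mycl made up 58.2% to 60.0% of their sum per kilobase, Myc 26.1% to 28.4% and Mycn 11.5% to 14.9%. The order and the gaps were similar with the length of the longest transcript, where Mycl took 57.5% to 59.4%.

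Among all 10 genes, Mxd3, Mycl and Max were highest per kilobase of exon, at means over the 4 libraries of 142, 138 and 127. Their library ranges overlapped, so their order was not resolved. Mga followed at 94.4, Mnt at 82.4, Mxi1 at 75.5 and Myc at 63.9, with each of these overlapping its neighbour in the order. Mxd4 at 52.9 and Mxd1 at 51.4 overlapped each other and lay below Myc, and Mycn was lowest at 31.8, below all the others. These means placed Mycl at the 71.2th percentile of the tested genes, Myc at the 46.6th and Mycn at the 27.0th. The order of the 10 genes depended on the length used, although Mycl stayed above Myc and Myc above Mycn. With the longest transcript Max came first at 236, Mxd3 second at 193 and Mycl next at 159. Mxd4 and Mxi1 moved above Mnt. Myc, at 74.3, then lay below Mxd4 at 97.0 and Mxd1 at 77.9, with its library range overlapping that of Mxd1.

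**Figure D1:**
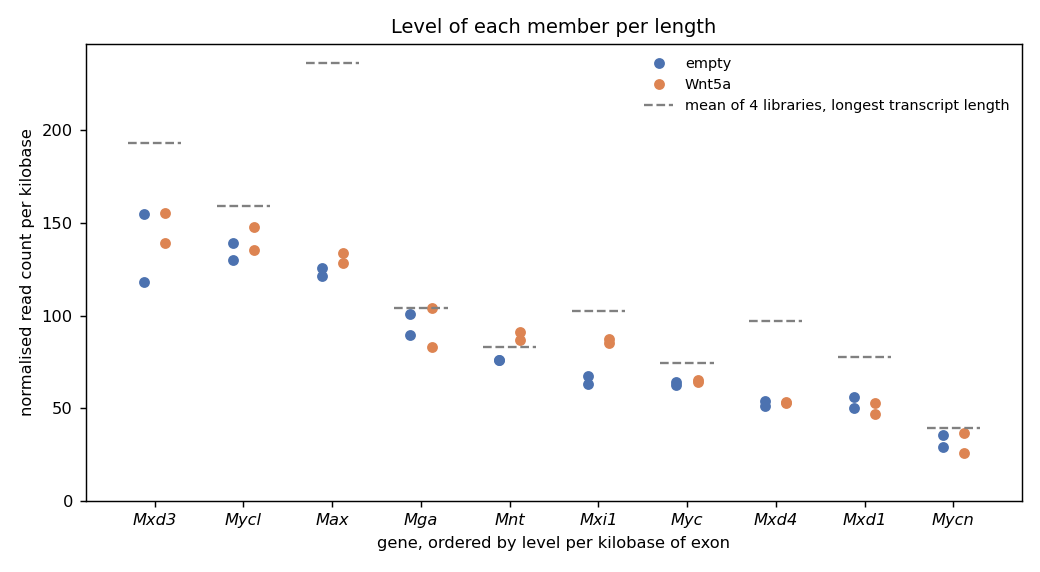
Normalised read count per kilobase for the 10 genes (horizontal axis, ordered by level), with 1 point per library, blue for empty and orange for Wnt5a. Points use the union of annotated exons as length, and grey dashed lines give the mean of the 4 libraries with the longest transcript as length; Mycl lies above Myc and Mycn with either length.

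The summed level of the repressors Mxd1, Mxd3, Mxd4, Mxi1, Mnt and Mga exceeded that of the Myc paralogs in every library. Per kilobase, their sum was 1.97 times that of Myc, Mycl and Mycn in empty library A and 2.19 times in empty library B. The ratio was 2.11 in Wnt5a library A and 2.27 in Wnt5a library B. The repressor sum is over more genes than the Myc sum, so the ratio does not compare levels per gene. The groups overlapped in this ratio, and it was higher in Wnt5a within both the A and the B pair. The repressor sum includes Mxi1 and Mnt. The median log2 differences of the other tested genes on their chromosomes were 0.36 and 0.17, as described below. These are RNA levels, and no protein or dimer was measured.

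None of the 10 genes passed the threshold between Wnt5a and empty cells in the limma test across all 12357 genes tested (adjusted p under 0.05), where 2.06% of genes did (1.38% higher, 0.672% lower). Mxi1 and Mnt had an unadjusted p under 0.05, as did 16.1% of tested genes, and both were higher in Wnt5a. By edgeR's quasi-likelihood test 0 of the 10 genes passed (background 1.99%, 1.33% higher), and by DESeq2 1 passed, Mxi1, which was higher (background 4.35%, 2.53% higher). Mxi1 also passed without empty library A (background 3.99%, 2.57% higher). Mxi1 and Mnt both passed, as higher, when the 16 samples were counted separately (background 35.4%, 17.7% higher). That count treats samples that differ by about the sampling noise as replicates. The median log2 difference of the 10 genes was 0.050 (7 higher, 3 lower), against 0.0026 for all genes tested. Both Wnt5a libraries lay above both empty libraries for 3 of the 10 genes, Mxi1, Mnt and Max, as for 22.7% of tested genes. In the reverse direction this held for 0 of the 10 genes, against 21.5% of tested genes. All 8 Wnt5a samples lay below all 8 empty samples for 0 of the 10 genes (background 5.95%). Differences below are on the scale log2(value + 1).

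**Figure D2:**
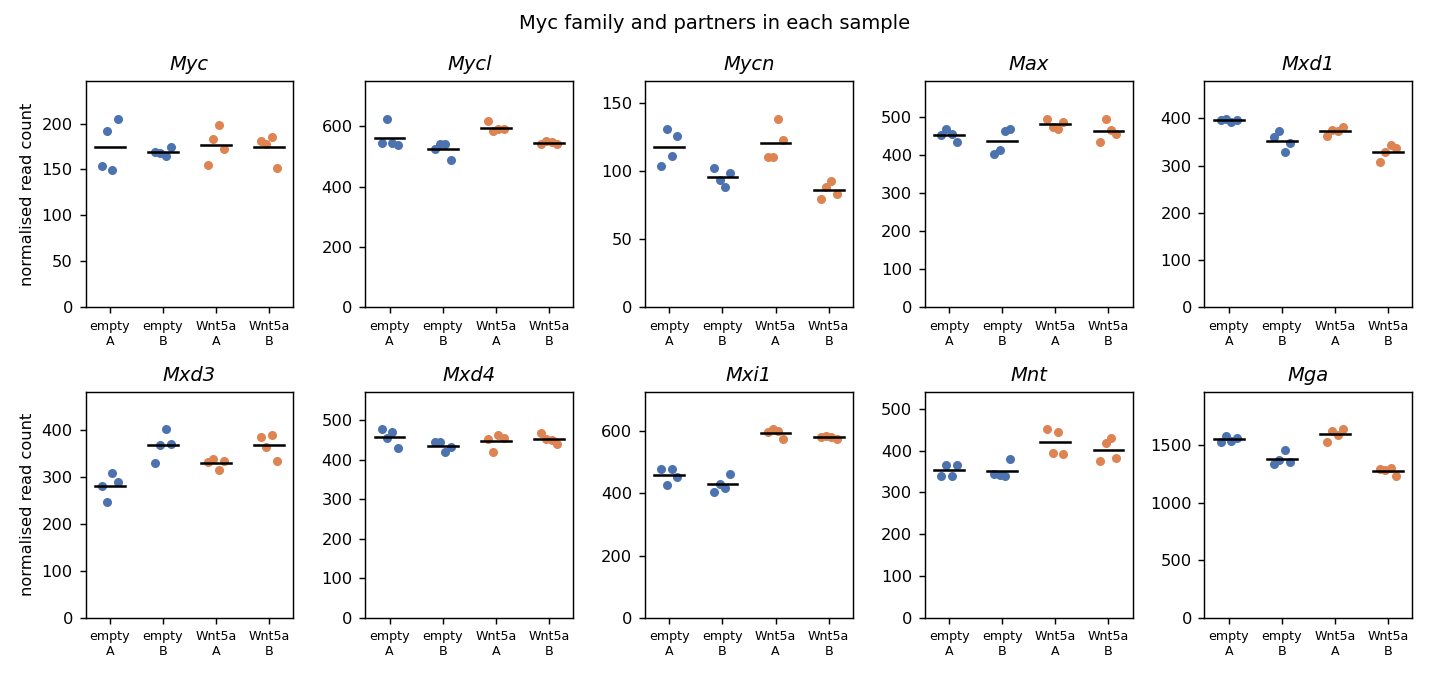
Normalised read count of each of the 10 genes in each of the 16 samples (vertical axes start at 0). Samples are set out by library, points are single samples, and black lines are library means; Mxi1 is the only panel in which all Wnt5a samples (573 to 605) lie above all empty samples (405 to 479.5).

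Mycl encodes L-Myc, the paralog most closely tied to neuroendocrine small cell lung cancer. Its normalised read count ran from 487 over a median of 542 to 625 in the 8 empty samples. In the 8 Wnt5a samples it ran from 541 over a median of 567 to 617. The groups overlapped, and the empty range enclosed the Wnt5a range. The difference was 0.071 (SE 0.086, 95% interval -0.13 to 0.28; limma adjusted p = 0.779), that is 1.05-fold with an interval of 0.912-fold to 1.21-fold. The A pair of libraries gave 0.082 and the B pair 0.060.

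Myc encodes c-Myc, the founding member of the family. It ran from 149 over a median of 169 to 205 in the empty samples and from 151 over a median of 180 to 198 in the Wnt5a samples, so the empty range again enclosed the Wnt5a range. Its library means were 175 and 169 in empty, and 177 and 174 in Wnt5a. The difference was 0.029 (SE 0.095, 95% interval -0.20 to 0.26; limma adjusted p = 0.934), with bounds of 0.872-fold and 1.19-fold.

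Mycn encodes N-Myc, best known from neuroblastoma. It ran from 88.3 over a median of 103 to 131 in the empty samples and from 79.0 over a median of 101 to 138 in the Wnt5a samples. Here the Wnt5a samples had both the lowest and the highest value. The 2 library pairs pointed in opposite directions, at 0.029 for A and -0.16 for B. The difference was -0.064 (SE 0.19, 95% interval -0.52 to 0.39; limma adjusted p = 0.926). Mycn had the fewest reads of the 10 genes (365 to 512 per library) and the widest interval, from 0.699-fold to 1.31-fold.

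The promoters of the most and the least abundant paralog are shown from RefSeq's table (build GRCm38.p6), which holds an entry for 9 of the 10 genes; Myc has none. Each stretch runs from 250 bases before an annotated start to 20 bases after it, 5′ to 3′ on the gene's strand. Capitals mark matches on either strand to CACGTG (the E-box), TATAAA (a core promoter motif) or TTTGGCGC (a sequence recognised by E2F factors, which Rb1 restrains). Of the tested genes with an entry, 11.1%, 7.57% and 1.04% held the respective motif in such a stretch; of all 32851 stretches of this length, 6.57%, 12.9% and 0.463% did. The motifs share no bases with each other here, and a match is a run of letters, not evidence of binding.
Mycl (chr4:122995681-122995950, + strand): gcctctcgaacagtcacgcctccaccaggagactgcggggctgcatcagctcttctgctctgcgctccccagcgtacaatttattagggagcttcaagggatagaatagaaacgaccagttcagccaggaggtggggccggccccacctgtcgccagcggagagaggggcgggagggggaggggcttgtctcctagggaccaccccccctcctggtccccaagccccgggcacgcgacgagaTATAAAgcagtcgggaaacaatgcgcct
Mycn (chr12:12941817-12942086, - strand): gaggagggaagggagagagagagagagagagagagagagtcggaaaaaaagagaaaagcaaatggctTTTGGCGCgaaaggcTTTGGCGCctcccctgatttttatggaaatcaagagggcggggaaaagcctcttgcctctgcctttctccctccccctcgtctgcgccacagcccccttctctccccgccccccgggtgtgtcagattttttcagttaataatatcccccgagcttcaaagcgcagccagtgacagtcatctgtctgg
The Mycl stretch holds 1 TATAAA, from 8 to 3 bases before the annotated start, and no E-box. The bases directly after this start did not occur in full in a GENCODE M21 transcript of Mycl. The position therefore holds for RefSeq's start only. Those after the Mycn start did occur in a transcript of Mycn. The Mycn stretch holds 2 copies of TTTGGCGC, at 183 to 176 and 168 to 161 bases before the start, and no E-box.

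The genes lying next to the 3 paralogs were examined as context. Of the 18 genes concerned, 3 on each side of each paralog among the tested genes, 0 passed the limma threshold (lowest adjusted p = 0.303). An unadjusted p under 0.05 held for 1 (background 16.1%), and 0 passed by edgeR or DESeq2. Around Mycl, Rlf, Ppt1, Cap1, Trit1, Ppie and Hpcal4 differed by -0.086 to 0.24. RLF is known as a fusion partner of MYCL in human small cell lung cancer, and here Rlf averaged 628 in empty and 648 in Wnt5a. Next to Myc, the noncoding gene Pvt1 had 22.9 and 17.1 in empty libraries against 24.9 and 40.1 in Wnt5a, a difference of 0.65 (limma adjusted p = 0.313). Next to Mycn, Ddx1, which is often amplified together with MYCN in neuroblastoma, was at 2036 and 2022, a difference of -0.011 (limma adjusted p = 0.965).

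The tested genes with the most similar pattern over the 4 libraries were found for each paralog among genes of like level (mean within 2-fold), by the root mean square difference of centred log2 values. For Mycl these were Smim13 (0.0068), Zfp617 (0.0075) and Smim10l1 (0.0076), among 4898 genes whose median was 0.11. For Myc they were Ndufaf7 (0.0026), Galns (0.0045) and Arhgap17 (0.0071), among 3895 genes with a median of 0.11. For Mycn they were C2cd4b (0.037), Parp14 (0.038) and Rassf10 (0.043), among 2908 genes with a median of 0.24. With 4 libraries such likeness is a description only. For Mycn it follows the difference between libraries A and B, as C2cd4b was at 163 and 142 in empty and 170.5 and 124 in Wnt5a. Mycl and Myc were likewise lower in B than in A in both groups. Smim13 was at 762 and 703 in empty and 797 and 737 in Wnt5a. Ndufaf7 was at 183 and 177 in empty and 186 and 182 in Wnt5a.

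Max, the common partner of all the other members, ran from 403 over a median of 454 to 469 in the empty samples. In the Wnt5a samples it ran from 434.5 over a median of 472 to 496. The samples overlapped, but both Wnt5a libraries (481 and 463) lay above both empty libraries (453 and 437). The difference was 0.086 (SE 0.078, 95% interval -0.10 to 0.27; limma adjusted p = 0.695), with similar values in the A (0.088) and B (0.083) pairs. It corresponds to 1.06-fold, with bounds of 0.932-fold and 1.21-fold.

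Mxi1 showed the largest difference of the 10 genes. It encodes a Max partner that recruits Sin3. Its normalised read count was 459 and 429 in empty libraries A and B, and 595 and 579.5 in Wnt5a libraries A and B. All 8 Wnt5a samples (573 to 605, median 582) lay above all 8 empty samples (405 to 479.5, median 442), as was the case for 6.45% of tested genes. The difference was 0.40 (SE 0.080, 95% interval 0.21 to 0.59), or 1.32-fold, and 0.37 and 0.43 in the A and B pairs. Its limma adjusted p was 0.064, short of the threshold. With the replicate block, which compares libraries of the same letter, the limma adjusted p was 0.0046. That fit called 17.0% of tested genes (8.68% higher), and 2 of the 10 members, Mxi1 and Mnt, both higher.

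Mnt encodes a broadly expressed Max partner that is present alongside Myc in dividing cells. It was at 353 and 351 in the empty libraries and at 421 and 401 in those with Wnt5a. Its samples ran from 339 over a median of 343 to 379.6 in empty and from 375 over a median of 406 to 451 in Wnt5a, so they overlapped only at the edge. The difference was 0.22 (SE 0.080, 95% interval 0.031 to 0.41), or 1.17-fold, and 0.25 and 0.19 in the A and B pairs. The limma adjusted p was 0.235, and 0.039 with the replicate block.

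**Figure D3:**
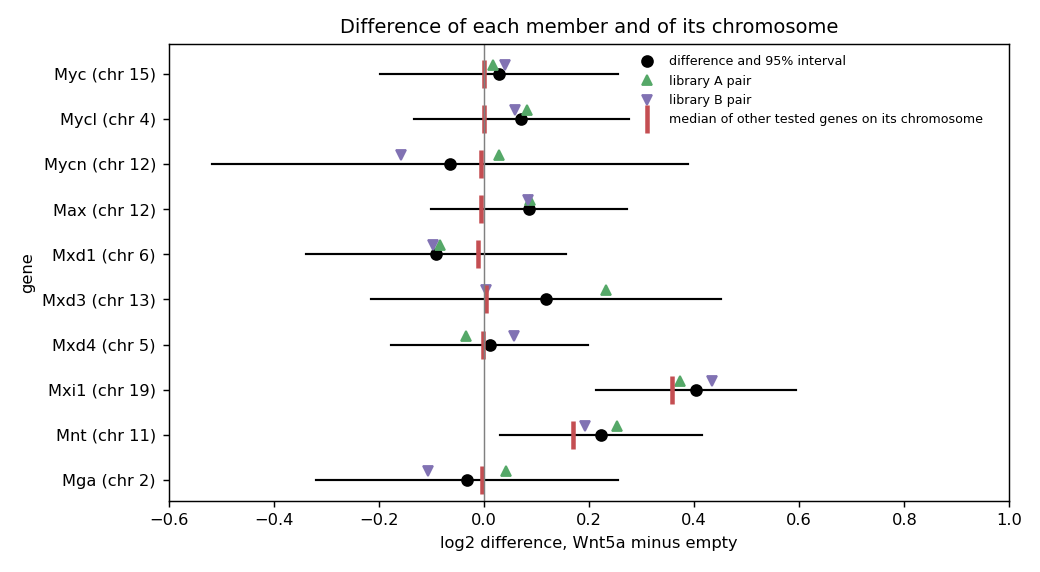
Log2 difference between Wnt5a and empty (horizontal axis) for the 10 genes. Black points and lines are the estimates of limma and their 95% intervals, triangles the A and B pairs of libraries, and red bars the median difference of the other tested genes on the same chromosome; for Mxi1 and Mnt the red bar (0.36 and 0.17) lies within the interval and away from 0.

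Both genes lie on chromosomes where most genes were higher in Wnt5a. Mxi1 lies on chromosome 19, where the median difference of the 411 other tested genes was 0.36 and 83.0% of them were higher in Wnt5a. Mnt lies on chromosome 11, where the median of the 1019 other tested genes was 0.17 and 80.6% were higher. The medians of the chromosomes that carry the other 8 members lay between -0.012 and 0.0047. Mxi1 exceeded its chromosome's median by 0.046 and stood at the 60.3rd percentile of that chromosome. Mnt exceeded its own by 0.053 and stood at the 62.8th percentile. After the chromosome medians were subtracted, an alternative added after the data were examined, the limma adjusted p was 0.898 for Mxi1 and 0.880 for Mnt. On chromosome 19 both Wnt5a libraries lay above both empty libraries for 73.1% of tested genes, 13.1% were called higher by limma, and 61.4% with the replicate block. On chromosome 11 these shares were 58.9%, 1.37% and 34.9%. Why these chromosomes differ was not tested.

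**Figure D4:**
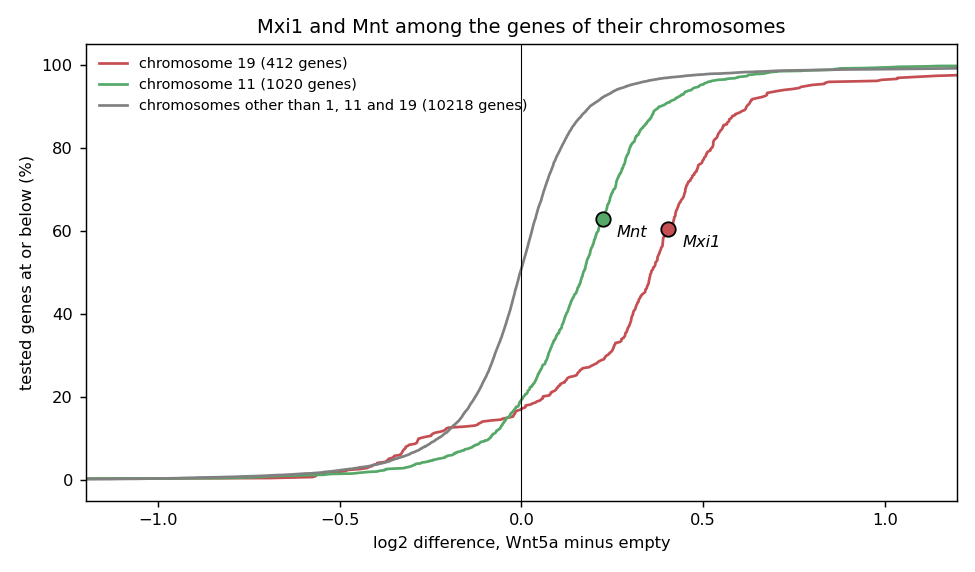
Cumulative share of tested genes (vertical axis, %) at or below a log2 difference between Wnt5a and empty (horizontal axis). Red is chromosome 19, green chromosome 11 and grey all chromosomes other than 1, 11 and 19; Mxi1 (0.40) and Mnt (0.22) sit slightly above the middle of the curve of their own chromosome.

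The tested genes next to Mxi1 and Mnt, which were looked at after the values were seen, were mostly higher too (4 of 6 and 5 of 6). Beside Mxi1, Itprip differed by 0.45, Xpnpep1 by 0.40, Smc3 by 0.30 and Smndc1 by 0.26, while Add3 differed by -0.087 and Rbm20 by -0.27. Beside Mnt, 5 of 6 genes were higher, from 0.11 for Pafah1b1 to 0.47 for Srr, and Sgsm2 was at -0.0077. The promoters of Mnt, Mxi1 and Max are shown with the same marking, since these are the 3 genes whose libraries did not overlap. Mxi1 has 3 annotated starts, of which the first and the second are printed.
Mnt (chr11:74830674-74830943, + strand): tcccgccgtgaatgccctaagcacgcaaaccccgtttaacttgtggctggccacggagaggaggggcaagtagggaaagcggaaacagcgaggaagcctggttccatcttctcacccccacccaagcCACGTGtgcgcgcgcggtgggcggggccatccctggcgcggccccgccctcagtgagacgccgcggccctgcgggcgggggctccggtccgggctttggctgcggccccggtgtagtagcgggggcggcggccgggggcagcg
Mxi1 first start (chr19:53310256-53310525, + strand): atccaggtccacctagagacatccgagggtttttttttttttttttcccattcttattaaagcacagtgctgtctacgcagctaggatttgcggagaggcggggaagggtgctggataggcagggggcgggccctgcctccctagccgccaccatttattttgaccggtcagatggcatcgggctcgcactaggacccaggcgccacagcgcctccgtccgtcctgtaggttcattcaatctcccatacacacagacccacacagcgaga
Mxi1 second start (chr19:53329163-53329432, + strand): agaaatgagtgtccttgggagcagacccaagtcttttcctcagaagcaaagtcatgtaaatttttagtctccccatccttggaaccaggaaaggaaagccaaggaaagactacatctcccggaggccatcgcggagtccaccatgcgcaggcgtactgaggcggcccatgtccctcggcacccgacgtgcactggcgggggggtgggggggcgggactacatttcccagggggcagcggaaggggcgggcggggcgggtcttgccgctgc
Max (chr12:76962229-76962498, - strand): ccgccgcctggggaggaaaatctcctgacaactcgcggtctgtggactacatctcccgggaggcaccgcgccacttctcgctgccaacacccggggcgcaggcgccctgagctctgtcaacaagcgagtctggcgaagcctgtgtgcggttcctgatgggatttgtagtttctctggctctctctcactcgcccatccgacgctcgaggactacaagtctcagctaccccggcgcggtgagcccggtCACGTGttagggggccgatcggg
The Mnt stretch holds 1 E-box, at 123 to 118 bases before the start, and the Max stretch 1 that spans RefSeq's start. The bases directly after the Max start and the first Mxi1 start did not occur in full in a GENCODE M21 transcript of the gene. Those after the Mnt start and the second Mxi1 start did. The stretches at the 3 starts of Mxi1 hold none of the 3 motifs. Mxd4 is the third member with an E-box, at 219 to 214 bases before its start.

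Of the other repressors, Mxd1, a factor linked to differentiation, was at 396.5 and 353 in the empty libraries and at 374 and 329.8 in those with Wnt5a. The difference was -0.091 (SE 0.10, 95% interval -0.34 to 0.16; limma adjusted p = 0.765), and the samples overlapped (329.8 to 399.5 against 308 to 382). Mxd4 was at 458 and 435.5 in empty and at 448 and 453 in Wnt5a, a difference of 0.012 (SE 0.079, 95% interval -0.18 to 0.20; limma adjusted p = 0.965). Its samples overlapped almost fully, from 419 to 477 in empty and from 421 to 469 in Wnt5a.

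Mxd3, a repressor known for expression in the S phase of dividing cells, was at 280.4 and 367 in the empty libraries and at 329.5 and 368 in the Wnt5a libraries. Empty library A stood apart below the other 3. Its 4 samples ran from 246 to 308 and those of the other libraries from 315 to 401. The difference was 0.12 (SE 0.14, 95% interval -0.21 to 0.45; limma adjusted p = 0.775). The A pair gave 0.23 and the B pair 0.0033, and the difference was -0.076 when empty library A was left out.

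Mga, which carries a T-box beside its helix-loop-helix domain and joins Max in the Polycomb complex PRC1.6, was at 1547 and 1375 in the empty libraries. It was at 1594 and 1277 in the Wnt5a libraries. In both groups library A was higher than library B, and the Wnt5a samples (1231 to 1635) enclosed the empty samples (1331 to 1574). The difference was -0.032 (SE 0.12, 95% interval -0.32 to 0.25; limma adjusted p = 0.941), with 0.043 in the A and -0.11 in the B pair.

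For 7 of the 10 genes a difference between libraries A and B of a group was larger than the difference between the groups, as for 66.7% of tested genes. The direction from A to B was the same in both groups for 9 of the 10 genes, against 71.3% of tested genes. The widest such gaps were in Mycn, with B minus A at -0.30 in empty and -0.49 in Wnt5a on the log2 scale, and in Mxd3, with B minus A at 0.39 and 0.16. Mga was lower in B, with differences of -0.17 and -0.32. What separates A from B is not stated in the labels.

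The wider Myc pathway was followed in 10 lists of 144 other genes found in the files, of which 131 were tested. Of these, 5 were higher in Wnt5a by limma and 0 lower, a share of 3.82% against 2.06% of all tested genes; 4 remained apart from Brms1, described below. With the replicate block 26 passed, or 19.8% against 17.0%. Of the 5 genes, 4 (Brms1, Rrp12, Nolc1 and Shmt1) lie on chromosomes 11 and 19, and the other, Impdh2, lies on chromosome 9. Over the lists, the 20 tested genes on chromosomes 11 and 19 had a median difference of 0.32, and the 111 elsewhere one of 0.036. For all tested genes these medians were 0.21 and -0.011. Chromosome 1 was lower in Wnt5a, with a median of -0.17 over 689 tested genes, and 7 of the 8 pathway genes on it were lower. The 103 pathway genes on none of these 3 chromosomes had a median of 0.040.

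The 3 lists of genes known as activated by Myc held 60 of the 131 tested genes (45.8%) and 4 of the 5 calls. Thus 6.67% of them were called, against 1.38% of all tested genes called higher. The lists were chosen with earlier results of these data known, so this share is a description only. Of the 27 nucleolar genes tested, 21 were higher in Wnt5a, with a median difference of 0.11, and 2 rose past the threshold. Rrp12, a factor of ribosomal subunit maturation, rose from 121 ± 6.81 to 211 ± 6.06 (SD, n = 2), a difference of 0.80 (limma adjusted p = 0.015). Nolc1, a nucleolar phosphoprotein, rose from 402 ± 19.3 to 574 ± 2.80, a difference of 0.51 (limma adjusted p = 0.030). Both lie on chromosome 19, where limma called 13.1% of tested genes higher. After subtraction of chromosome medians their limma adjusted p-values were 0.141 and 0.553. Among the 17 nucleolar genes on chromosomes other than 1, 11 and 19, 15 were higher, with a median of 0.11. Of these 15, Nop2, Nop56 and Polr1a were higher in the A pair only, with -0.0068, -0.019 and -0.024 in the B pair. The rest were higher in both pairs. Only Fbl, Nop16, Rrp9, Gnl3, Nip7 and Grwd1 had both Wnt5a libraries above both empty ones (background 22.7%). None of the 17 passed by limma. Over all tested genes, the medians of the chromosomes other than 1, 11 and 19 lay between -0.017 and 0.024. Of the 5 on chromosome 1, 4 were lower (Ncl, Nop58, Wdr12 and Ddx18). With the replicate block 3 nucleolar genes were higher and 1 lower (Utp20, chromosome 10), where 17.0% of all tested genes passed, 8.68% as higher.

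Of the 24 metabolic genes tested, 14 were higher and 10 lower, with a median of 0.051, and 2 rose past the threshold. Shmt1, a cytosolic serine hydroxymethyltransferase, rose from 116 ± 23.1 to 255 ± 14.3, a difference of 1.15 (limma adjusted p = 0.016). Impdh2, which catalyses the committed step of guanine nucleotide synthesis, rose from 491 ± 19.1 to 785 ± 16.8, a difference of 0.67 (limma adjusted p = 0.0094). Both stayed past the threshold after subtraction of chromosome medians, at limma adjusted p-values of 0.030 and 0.0078. By DESeq2 5 metabolic genes passed (background 4.35%) and by edgeR 2 (background 1.99%). With the block 8 passed, all higher (background 17.0%, 8.68% higher).

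In the list of 9 tested cell cycle and translation targets 8 were higher, with a median of 0.11. By limma 0 passed, although 1 had an unadjusted p under 0.05 (background 16.1%). That gene, Eif4a1 (chromosome 11), a translation initiation helicase, was at 6020.2 ± 439 and 7643 ± 415, a difference of 0.35 (adjusted p = 0.131 by limma; 0.0041 once blocked). By DESeq2 1 of this list passed (background 4.35%) and by edgeR 0 (background 1.99%). E2f3 was at 344 ± 23.5 and 390.4 ± 1.76, a difference of 0.18 (limma adjusted p = 0.377). Of the 8 genes repressed by Myc 5 were lower, with a median of -0.089. None passed by limma, edgeR or DESeq2, and 1 had an unadjusted p under 0.05 (background 16.1%). Cdkn1a, the cell cycle inhibitor p21, was at 1456 ± 22.3 and 1257 ± 31.2, a difference of -0.21 (adjusted p = 0.201 by limma; 0.023 once blocked). Gadd45b was at 397 ± 4.84 and 355 ± 0.577, a difference of -0.16 (limma adjusted p = 0.394).

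Of the corepressors that Mxd proteins, Mxi1 and Mnt recruit, 1 of 18 tested genes passed. Brms1, a subunit of Sin3 complexes, had 0 reads in both empty libraries and 146 and 119 reads in the Wnt5a libraries. Taking 3 reads over both empty libraries as the floor, it was at least 78.8-fold higher in Wnt5a. Brms1 passed the filter on low values only through the Wnt5a libraries, so its call is part of the count but supports nothing further. The other 17 genes, Sin3a, Sin3b, Hdac1 and Hdac2 among them, did not pass, and the median of the list was 0.017. With the block 2 genes passed (background 17.0%), Brms1 and Ncor1 (chromosome 11), a corepressor gene that differed by 0.15 (blocked limma adjusted p = 0.048).

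Among the 15 Myc cofactors 0 passed by limma or edgeR, 2 by DESeq2 (background 4.35%) and 2 with the block (background 17.0%). Those with an unadjusted p under 0.05 numbered 2 (background 16.1%). The latter were the acetyltransferase genes Kat5 (chromosome 19), at 206 ± 3.22 and 280.5 ± 9.79, a difference of 0.44, and Kat2a (chromosome 11), at 505 ± 23.7 and 647 ± 6.43, a difference of 0.36. Their limma adjusted p-values were 0.067 and 0.082. Of the 15 genes of Myc protein turnover 0 passed by limma, edgeR or DESeq2. With the block 4 passed (background 17.0%), 2 in each direction, the lower being Fbxw7 on chromosome 3 and Ppp2r5a on chromosome 1. An unadjusted p under 0.05 held for 2 (background 16.1%). These were Usp36 (chromosome 11), a deubiquitinase of Myc, at 588 ± 35.1 and 719 ± 3.22, and Ppp2ca (chromosome 11), a catalytic subunit of protein phosphatase 2A, at 2656 ± 88.3 and 3125 ± 13.3. Their differences were 0.29 and 0.23, with limma adjusted p-values of 0.139 and 0.177.

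Of the 11 further subunits of PRC1.6, the complex that holds Mga and Max, 0 passed by limma or edgeR and 2 by DESeq2 (background 4.35%). An unadjusted p under 0.05 held for 2 (background 16.1%). Pcgf6 (chromosome 19), which defines this complex, was at 153 ± 4.48 and 217 ± 6.21, a difference of 0.50 (limma adjusted p = 0.059). Cbx1 (chromosome 11) was at 498 ± 18.0 and 642 ± 17.6, a difference of 0.37 (limma adjusted p = 0.076). With the block 2 genes were higher and 1 lower (Rnf2, chromosome 1), where 17.0% of all tested genes passed, 8.68% as higher. Of 12 listed germline genes that PRC1.6 is known to silence, 11 stayed at or below 3.99 in every library, among them Ddx4, Dazl and Stag3. The other, Tdrkh, was at 524 ± 16.5 and 556 ± 45.0, a difference of 0.083 (limma adjusted p = 0.745).

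The parallel network around Mlx, which pairs with the glucose-responsive factors Mlxip and Mlxipl, was tested in 3 genes. All 3 were higher in Wnt5a, by 0.13 to 0.15. None passed by limma, edgeR or DESeq2, and 0 had an unadjusted p under 0.05. Mlx (chromosome 11) was at 323 ± 2.83 and 358 ± 1.42, and Mlxip at 496 ± 50.3 and 551 ± 33.0, with limma adjusted p-values of 0.448 and 0.539.

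**Figure D5:**
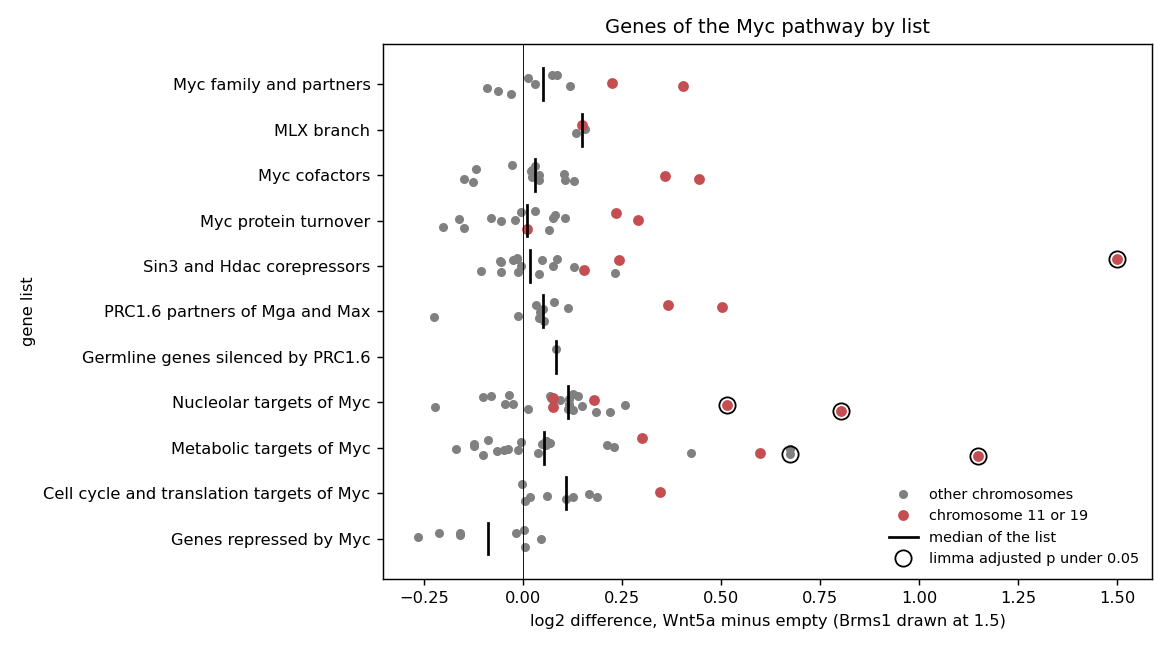
Log2 difference between Wnt5a and empty (horizontal axis) for each tested gene of the 10 members and the 10 pathway lists (rows). Red points lie on chromosome 11 or 19 and grey points elsewhere, black lines are list medians and circles mark a limma adjusted p under 0.05; 4 of the 5 circled genes are red, and Brms1 is drawn at the right edge.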

How the data were processed

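RNA came from 8 empty and 8 Wnt5a samples. Per the labels' protocols, mRNA was selected with oligo-dT out of 500 ng total RNA. The submitters' processing notes name TopHat, Bowtie, HTSeq and DESeq2; their versions, the genome build and the annotation are not given in the sources used here. The authors deposited 1 normalised signal value per gene, termed the normalised read count here. All values (100%) were whole multiples of 1 step per file (0.934 to 1.11; tolerance 1e-06 reads), so whole reads were recovered. Library totals were 30220749 to 35315408 reads; reads limit the precision of low genes, and strand use is unknown.

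Pairs of samples with an index of dispersion under 1.5 (over genes averaging 10 or more reads) were averaged to libraries. Genes with a mean value of at least 10 were tested with limma 3.58.1 in R 4.3.3 (lmFit and trended eBayes). Values entered as log2(value + 1), p-values were Benjamini-Hochberg adjusted across every gene tested, and the threshold was 0.05. That scale understates the change of low genes. edgeR 4.0.16 and DESeq2 1.42.0 were run on the recovered reads, where edgeR called 246 genes. The main limma fit, edgeR and DESeq2 were tested on simulated data with independent libraries. The replicate block and the other alternatives were not. Same-numbered samples of both groups deviated together (r = 0.175 to 0.220 in 8 pairs, and 0.44 between libraries, across genes), so a replicate block (A with A, B with B) was also fitted. It rests on 2 pairs of libraries that no label names as pairs, and only 1 of 8 numbers matched its own number best.

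The members, lists and tests were chosen with earlier results of these data known. Named in each list were up to 4 genes past the threshold, or else the 2 with the lowest p. Exon lengths came from GENCODE M21. Gene order came from RefSeq (GRCm38.p6; 17619 of 17655 symbols matched). Promoter coordinates are RefSeq's, since the files name no build.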

Additional observations from a re-analysis of the deposited data

Results flagged for a closer look

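In the 8 empty samples, Mycl had 1 sample far from the others. Sample 2 was at 625 and the next highest at 543, a gap of 0.592 of the whole range, above Dixon's 95% critical value for 8 samples. The sample is 1 of the 4 averaged to empty library A, whose 4 values had an index of dispersion of 2.84 for Mycl. For Myc the index in that library was higher, at 4.01, although its 8 empty samples did not pass the limit. Of 20 sets of samples checked 1 passed this limit, and chance gives about 1 in 20. The cause was not tested.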

How the results depend on the processing

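Of 160 results for single members under the alternatives, 147 kept their direction and call, 6 gained a call, 0 lost one and 7 reversed. The gains were Mxi1 with all 16 samples counted separately, with the replicate block, with DESeq2 and without empty library A, and Mnt with the first pair of these. The reversals were, in genes not called in any of these fits, Mxd4 after median centring (-0.0076), and in fits without 1 library Mycn (range -0.31 to 0.18), Mxd3 (-0.076 to 0.31), Mxd4 (-0.025 to 0.048) and Mga (-0.19 to 0.13). For each of Mycn, Mga, Mxd3 and Mxd4 the largest of these values exceeds the reported difference in size. The reported differences were -0.064, -0.032, 0.12 and 0.012 in that order. The replicate block changed no other call among the members. In those leave-one-out fits a group keeps 1 library, assumed to vary like the others. The number of members called was 0 in the analysis as reported, 2 with all 16 samples, 2 with the replicate block, 1 with DESeq2, and 0 to 1 without 1 library. Pathway genes called numbered 5, against 2 without the filter, 3 without the trend, 49 with all 16 samples, 26 with the replicate block, 13 with DESeq2, 4 to 12 without 1 library (12 without empty library B) and 3 with chromosome medians removed. Genes called numbered 254 (171 higher), against 146 (130 higher) without the filter, 102 with a minimum of 50, 158 without the trend, 4377 with all 16 samples, 2095 with the replicate block, 538 with DESeq2 and 138 to 1098 without 1 library (493 without empty library A, 1098 without empty library B, 166 without Wnt5a library A and 138 without Wnt5a library B). Counting all 16 samples treats samples that differ by about the sampling noise as replicates. The cause of the other shifts was not tested. With the longest transcript as length, 2 of the 10 members kept their rank by level. The Wnt5a difference kept its direction and call under each alternative (3.12 to 3.64). Mycn, with the fewest reads (365 in its lowest library), had an SE of 0.19, and of 0.096 with the replicate block.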
